A study of Mus musculus with 27 samples.

Results

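The comparison described here sets tibialis anterior muscles taken 21 days after volumetric muscle loss (VML) against muscles without injury, gene by gene. It takes 10 of the 27 samples of the series, the 5 labelled as day 21 and the 5 labelled as uninjured, and it tests the 14630 of 54532 genes of the deposited table that reached 0.5 FPKM in at least 5 of the 27 samples. FPKM is the number of fragments of a gene scaled to its length and to the depth of the sample, so levels of different genes are given per length. The injured mice were C57BL/6 males of 8 weeks from whose tibialis anterior 40% was excised, and the uninjured muscles came from the same strain with no excision. The public record calls the excision unilateral and the methods of the study call it bilateral, and the labels do not say which. The labels do not say either whether each sample is a different mouse, so p-values measure spread between samples, which may not be spread between mice. The main test pools that spread within groups over all 27 samples, not over the 10 alone. Samples are listed below in the order of replicates 1 to 5. A level written with ± is a mean with its SD over the samples of a group, and a log2 difference is day 21 minus uninjured on the scale of log2(FPKM + 1) with its SE.

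VML is the loss of a piece of muscle too large to be rebuilt. Spared and regenerating fibres border a scar, and nerve branches that crossed the lost part are cut. A fibre without its nerve returns to a fetal program, in which acetylcholine receptor subunits are made along the whole fibre, with the fetal γ subunit in place of the adult ε subunit, under the control of myogenin and its relatives. New fibres pass through the same fetal program before they are innervated. Mature fast fibres in turn hold high levels of fuel-burning enzymes, of the sarcoplasmic calcium pump and of fast myosin.

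Recovered reads totalled 15469920 to 21014569 per uninjured sample and 14391736 to 18906879 per day 21 sample. All 8 myofibre markers (such as Acta1, Ckm and Myh4) were detected, with a summed level of 84900 to 99700 FPKM in the uninjured muscles and 74400 to 106000 FPKM at day 21, so the labelled tissue was met in both groups. Day 21 replicate 5 stood apart from the other 4. Mitochondrial transcripts took 35.1% of its reads against 11.1% to 22.4% in the other day 21 samples and 17.7% to 24.9% in the uninjured muscles, and it had the fewest detected genes at 15725. Of the 255 genes called higher at day 21, it was the lowest of the 5 day 21 samples in 102, or 40.0%. Of the 247 genes called lower, replicate 3 was the highest day 21 sample in 107, or 43.3%, and replicate 5 in 23. Calls also depended on the other samples. Of the 98 called genes named in the text, 29 were not called without day 21 replicate 5, 46 without day 21 replicate 2, 36 without day 21 replicate 1, and 14 to 35 without any of the other 7. Values without replicate 5 are given beside the calls that end without it.

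Expression at day 21 was higher in 255 genes and lower in 247, which is 1.74% and 1.69% of the genes tested (limma on log2(FPKM + 1), adjusted p under 0.05). These shares are the background for every count of called list members below. The genes called higher had the larger changes, since 135 of them differed by more than 2-fold and 29 by more than 4-fold on this scale, against 46 and 4 of the genes called lower. Over all tested genes the median difference was 0.014 on the log2 scale, and 51.9% had the higher mean at day 21. In 213 of the genes called higher and 193 of those called lower, the 5 day 21 samples did not overlap the 5 uninjured ones. The calls were made on these same values, so the separation lends them no further support. Over all tested genes such separation was seen in 5.26% upward and 5.13% downward. Without day 21 replicate 5 the calls were 210 higher and 127 lower, of which 183 and 111 were among the calls with all samples. The balance of the calls depends on the scaling between samples. With FPKM rescaled to a common sum, 40 genes were called higher and 5 lower, with each sample's own total of reads 104 and 25, and with a common sum without mitochondrial genes 76 and 38. The first pair of scalings moves the median of all genes to 0.12, so differences of this size carry no direction of their own.

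**Figure D1:**
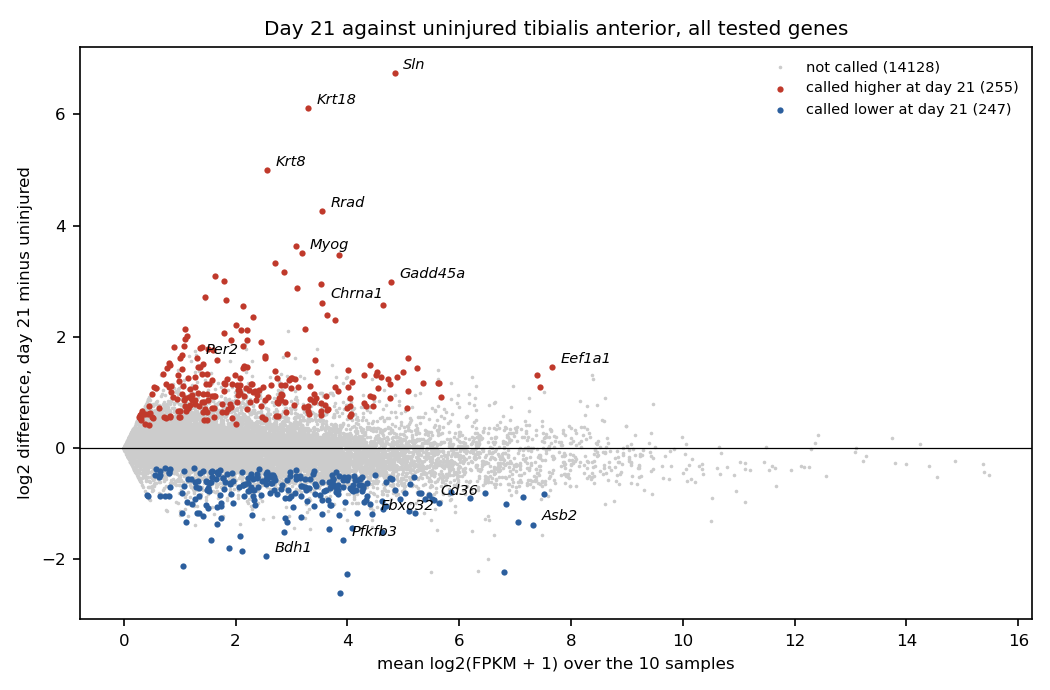
Log2 difference between day 21 and uninjured muscle (vertical) against the mean log2(FPKM + 1) of the 10 samples (horizontal) for 14630 genes, with the 255 genes called higher in red and the 247 called lower in blue. The largest differences are upward, with Sln at 6.74 and Krt18 at 6.11, whereas among the genes marked on the lower side Bdh1 is at -1.94 and Cd36 at -0.91.

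The muscle acetylcholine receptor was among the groups with the most calls. Of its 5 subunit genes, 4 rose at day 21 and none fell (1.74% of all genes rose), with a median difference of 2.55 on the log2 scale. The common sum left 1 of the 4 calls and limma-voom on the recovered reads 2, with medians of 2.53 and 2.84. The fetal γ subunit, Chrng, is normally replaced by the adult ε subunit soon after birth. It was at 0.0361, 0, 0.0614, 0.137 and 0.0656 FPKM in the uninjured muscles and at 10.1, 10.9, 6.72, 12.5 and 3.46 FPKM at day 21, a log2 difference of 3.1 ± 0.56 (SE, limma adjusted p = 0.0037). Uninjured samples had 0 to 7 reads of Chrng, near the limit of detection, and day 21 samples 161 to 781. Chrnd, the δ subunit, had 0.913, 2.0, 0.259, 0.42 and 0.935 FPKM without injury and 13.1, 12.5, 11.2, 12.2 and 3.43 FPKM at day 21 (log2 difference 2.55 ± 0.50, adjusted p = 0.00559 by limma). Both genes were thus higher in each day 21 sample than in any uninjured one, with replicate 5 the lowest of the day 21 samples.

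Chrna1, the α subunit that binds acetylcholine, stood at 2.93, 5.11, 3.44, 3.82 and 3.68 FPKM in uninjured muscle and at 42, 43.5, 37.1, 47.2 and 4.94 FPKM at day 21. Thus 4 samples were far above the uninjured range and replicate 5 lay inside it. The log2 difference was 2.62 ± 0.59 (SE, limma adjusted p = 0.0146), an exact permutation test over the 10 samples gave p = 0.0159 (two-sided, where 0.00794 is the smallest it can give), and without replicate 5 the difference was 3.19, adjusted p = 0.00213 by limma. Chrnb1, the β subunit, rose less, from 11.7, 15, 19.5, 16.9 and 13.1 FPKM to 36.5, 39, 29.7, 33.7 and 26.9 FPKM (1.08 ± 0.24, adjusted p = 0.0146 by limma), with no overlap. The adult subunit gene Chrne was at 9.37, 19.2, 13.7, 9.81 and 11.9 FPKM without injury and at 16.8, 17.7, 14, 31.9 and 27.6 FPKM at day 21, and its log2 difference of 0.69 ± 0.45 did not pass the test (limma adjusted p = 0.404). In contrast to the other subunits, replicate 5 was not low for Chrne. The difference between the changes of Chrng and Chrne was not tested.

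The sequences just before the starts of the receptor genes are shown because myogenin and MyoD bind E-boxes, 6-base motifs of the form CANNTG, which are found in receptor promoters. RefSeq on GRCm38.p6 gave 250 bases before the start of transcription for Chrna1, Chrnb1, Chrng, Chrne and Myog. The promoter of Chrnd was not searched. Capitals mark CAGCTG, which reads the same on both strands, and CAGGTG, searched on both strands, both of which are forms of CANNTG. The windows are printed 5′ to 3′ on the strand of the gene, chr2:73580339-73580588 (minus strand) for Chrna1, chr1:87205561-87205810 (plus) for Chrng and chr11:70619195-70619444 (minus) for Chrne.
Chrna1: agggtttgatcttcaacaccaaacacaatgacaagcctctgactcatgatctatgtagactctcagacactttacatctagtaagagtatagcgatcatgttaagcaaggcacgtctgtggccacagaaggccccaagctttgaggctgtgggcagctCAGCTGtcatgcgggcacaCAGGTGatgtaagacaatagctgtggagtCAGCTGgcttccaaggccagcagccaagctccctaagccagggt
Chrng: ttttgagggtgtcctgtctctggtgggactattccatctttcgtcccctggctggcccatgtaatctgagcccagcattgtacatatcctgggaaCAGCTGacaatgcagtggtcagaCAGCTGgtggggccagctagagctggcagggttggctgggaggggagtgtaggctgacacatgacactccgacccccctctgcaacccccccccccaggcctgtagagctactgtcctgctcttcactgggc
Chrne: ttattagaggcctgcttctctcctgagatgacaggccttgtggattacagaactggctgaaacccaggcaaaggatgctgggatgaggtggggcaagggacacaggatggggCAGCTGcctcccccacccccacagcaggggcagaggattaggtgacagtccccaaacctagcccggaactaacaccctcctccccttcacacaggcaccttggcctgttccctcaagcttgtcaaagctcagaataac

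The Chrna1 window held 2 copies of CAGCTG, 92 and 44 bases before the start, and 1 of CAGGTG between them. Chrng held 2 copies of CAGCTG and Chrne 1. The Chrnb1 window, of which 126 bases lie on annotated exons and which is not printed, held 1 CAGGTG. The Myog window held neither CAGCTG nor CAGGTG and 2 other forms of CANNTG, a motif found in 66.2% of all windows. Among 32536 distinct windows of the same length, 13.1% held CAGCTG at least once and 1.27% held it 2 or more times, and 17.3% held CAGGTG. These are matches of letters, and nothing in the data measures binding to them.

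Most tested genes of a denervation list, chosen with earlier results of these data known, were also higher at day 21. The count depends on which genes were listed. Fbxo32, Trim63 and Musk, also tied to loss of the nerve, were kept in other lists. None of them was called higher (log2 differences -1.19, -0.37 and 0.53). The receptor subunits, of which 4 rose, were also counted apart. Of 9 genes listed for denervation, 7 passed the filter on low values and 6 rose (1.74% of all genes rose). The median was 1.68 over the 7 against 0.014 over all genes. Whether loss of the nerve or new fibres lie behind these increases was not tested. The seventh, Fgfbp1, which encodes a carrier of fibroblast growth factors, was lower in mean (-0.60, unadjusted p = 0.027, limma adjusted p = 0.189), and the other 2 stayed under the filter. With limma-voom 3 were called and with the common sum 1. Myog, which encodes myogenin, the activator of receptor genes in denervated fibres and of differentiation in myoblasts, was at 2.51, 1.63, 2.34, 0.761 and 1.65 FPKM without injury and at 32.7, 53.4, 32.6, 38.3 and 9.95 FPKM at day 21 (3.5 ± 0.78, adjusted p = 0.0146 by limma). Gadd45a, a stress protein induced in denervated fibre nuclei, went from 11.7, 11.2, 9.08, 6.17 and 7.09 FPKM to 102, 93, 82.1, 129 and 25.5 FPKM (2.98 ± 0.62, adjusted p = 0.00959). In both genes even the low replicate 5 exceeded each uninjured sample.

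Runx1, a transcription factor that protects denervated fibres from wasting, had 0.106, 0.111, 0.269, 0.149 and 0.136 FPKM in uninjured muscle and 3.26, 4.32, 2.56, 3.3 and 0.983 FPKM at day 21 (1.68 ± 0.40, adjusted p = 0.0188 by limma). The adhesion molecule gene Ncam1, which is confined to the junction in innervated fibres and is also made by satellite cells and Schwann cells, had 0.407, 0.503, 0.502, 0.534 and 0.252 FPKM and 3.16, 3.74, 2.68, 1.98 and 1.29 FPKM (1.27 ± 0.30, adjusted p = 0.0179). Cdkn1a, encoding the cell cycle inhibitor p21, was measured at 6.32, 5.43, 5.52, 5.12 and 3.9 FPKM without injury and 43.8, 45.4, 34.7, 31 and 10.1 FPKM at day 21 (2.3 ± 0.60, adjusted p = 0.0317). These 3 genes again separated the groups fully, with replicate 5 nearest to the uninjured muscles. Hdac4, a deacetylase that links loss of the nerve to Myog, showed a smaller increase, from 2.22 ± 0.48 to 5.28 ± 1.46 FPKM (SD, n = 5 each, 0.94 ± 0.27, adjusted p = 0.0483), and the call was lost in 14 of 26 alternative settings.

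Genes that build the junction itself mostly showed no call. Of 14 organiser genes, 1 rose, the intermediate filament gene Nes (0.68, adjusted p = 0.0465 by limma), which fibres keep at junctions and which regenerating fibres and vessels also make. Musk, the kinase that gathers receptors under the nerve, was at 0.179, 0.292, 0.429, 0.559 and 0.47 FPKM without injury and 1.16, 0.975, 1.41, 1.06 and 0.498 FPKM at day 21 (0.53 ± 0.24, adjusted p = 0.223), and did not pass. Schwann cell markers gave no call in 7 genes by limma or limma-voom (median -0.32, 0 at an unadjusted p under 0.05), with a summed level of 30.7 to 234 FPKM in uninjured and 24.3 to 114 FPKM in day 21 samples.

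**Figure D2:**
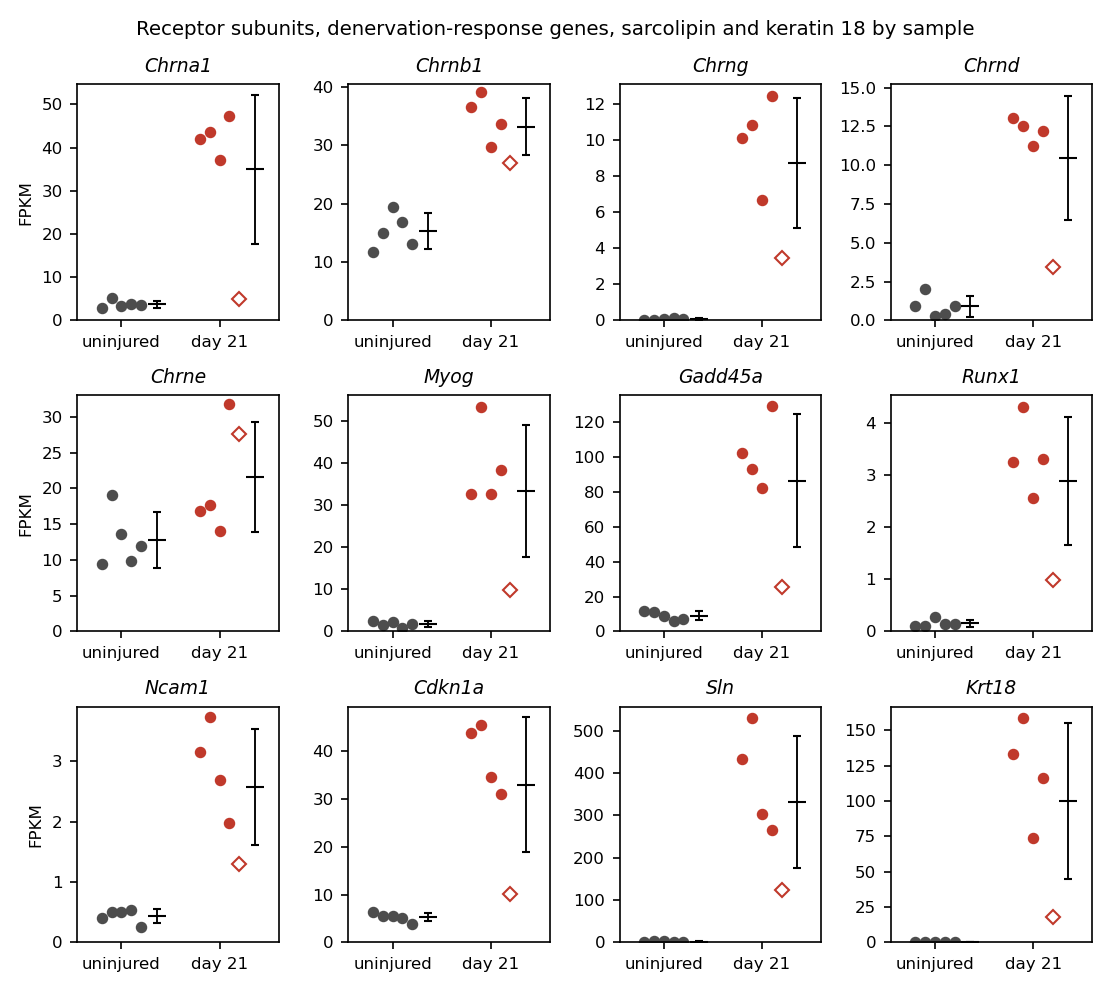
FPKM of 12 genes in the 5 uninjured (grey) and 5 day 21 (red) samples, each point being a sample in the order of replicates, the open diamond day 21 replicate 5, and the bar the mean with its SD. In 11 of the panels 4 day 21 samples lie above the uninjured ones and the diamond is the lowest of the day 21 samples, at 4.94 FPKM for Chrna1, whereas the Chrne groups overlap.

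Myog, called higher above, is a myogenic regulator too, but it was counted in the denervation list and not here. Of 15 other tested myogenic regulators and satellite cell genes, Myod1 was called, rising from 16.5, 13.9, 21.4, 22.6 and 21.1 FPKM to 56.8, 63, 56.8, 54.9 and 28.4 FPKM (1.37 ± 0.34, adjusted p = 0.023 by limma). MyoD is the factor that commits satellite cells to muscle and is also present in denervated fibres. Pax7, the marker of satellite cells, was at 0.489 ± 0.222 FPKM without injury and 0.714 ± 0.19 FPKM at day 21 (SD, n = 5 each, 0.21 ± 0.16, adjusted p = 0.488), and showed no call. Of 10 genes of myoblast fusion, Mymk, which encodes the membrane protein myomaker that fusing myoblasts require, was called. It stood at 0.0994, 0.192, 0.62, 0.161 and 0.136 FPKM in the uninjured muscles and 11.5, 18, 9.08, 7.53 and 3.56 FPKM at day 21 (3.0 ± 0.65, adjusted p = 0.0125), so that the lowest day 21 sample was still above the highest uninjured one. Among 25 cell cycle genes none was called by limma, 2 had an unadjusted p under 0.05, and limma-voom on the recovered reads called none either.

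On the scale of log2(FPKM + 1) the largest increase was in Sln, which encodes sarcolipin, a small membrane protein that binds the sarcoplasmic calcium pump and lowers the calcium moved per ATP. Sln was at 1.88, 2.42, 2.39, 1.17 and 1.3 FPKM in uninjured muscle and at 433, 531, 303, 265 and 125 FPKM at day 21, and the means differed 181-fold (6.74 ± 1.12, adjusted p = 0.00287 by limma). The spread at day 21 was wide, over 4-fold from replicate 5 to replicate 2, but smaller than the gap between the groups. With limma-voom, a fit to the log of the reads weighted by their precision, the calls of Sln (adjusted p = 0.108), Krt18 (0.262), Krt8 (0.175), Rrad (0.0677), Myog (0.163) and Chrng (0.114) were lost, though none changed direction. That fit also lost Mymk (0.193), Igfn1 (0.0541), Mybph (0.146), Chrnd (0.0786), Runx1 (0.104), Ccl8 (0.165) and further named calls, again without a change of direction. Rrad, a small GTPase that holds down the L-type calcium channel, was at 1.19, 0.921, 5.46, 0.927 and 1.6 FPKM and 60.1, 94.6, 50.4, 84.6 and 12.6 FPKM (4.26 ± 0.74, adjusted p = 0.0036), with 1 uninjured sample, replicate 3, above the other 4. These were the only 2 calls among 14 tested genes of calcium handling and related GTPases, whose median was -0.022.

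Calcium pump isoforms were measured alongside. Atp2a2, the pump of slow fibres and of heart, went from 5.35, 5.29, 4.46, 3.87 and 3.34 FPKM to 13.6, 13.1, 14.2, 13.2 and 6.82 FPKM (1.25 ± 0.27, adjusted p = 0.0127 by limma). Atp2a1, the pump of fast fibres, was at 4616 ± 1037 FPKM without injury and 3558 ± 1046 FPKM at day 21 (SD, n = 5 each, -0.40 ± 0.30, adjusted p = 0.477), with overlapping groups. Per length, the fast isoform was far more abundant than the slow one in every sample.

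Krt18 and Krt8, the 2 partner keratins of simple epithelia, came after Sln on the scale of log2(FPKM + 1). The order depends on that scale, since with limma-voom the log2 differences were 9.68 for Krt8, 8.71 for Krt18 and 7.35 for Sln. Krt18 was at 0.261, 0.121, 0.297, 0.0565 and 0.19 FPKM in uninjured muscles, from 1 to 5 reads per sample, and at 133, 159, 73.6, 116 and 18 FPKM at day 21, from 288 to 3233 reads (6.11 ± 1.04, adjusted p = 0.00349 by limma). Krt8 was at 0.115, 0, 0.131, 0 and 0 FPKM and 48.1, 80.8, 37.7, 31.4 and 7.5 FPKM (5.0 ± 0.88, adjusted p = 0.0036). In both keratins replicate 2 was the highest day 21 sample and replicate 5 the lowest. Markers of epithelia did not accompany them. None of 6 simple epithelium genes (Epcam, Cdh1, Krt7, Krt19, Cldn4 and Cldn7) passed the filter, and their summed level was 0.13 to 0.516 FPKM in uninjured muscles and 0 to 0.343 FPKM at day 21. Of 8 keratinocyte genes 2 passed the filter and none was called by limma or limma-voom (1 at an unadjusted p under 0.05), with a sum of 1.0 to 2.65 FPKM against 1.66 to 3.49 FPKM.

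Another 3 members of the 8 tested intermediate filament genes rose (1.74% of all genes rose). Vim, the vimentin gene of mesenchymal and regenerating cells, had 26.5 ± 4.57 FPKM and 61.5 ± 14.3 FPKM (SD, n = 5 each, 1.17 ± 0.30, adjusted p = 0.0275 by limma). Lmna, which encodes lamins A and C of the nuclear envelope, had 19.1 ± 2.58 FPKM and 36.5 ± 5.83 FPKM (0.90 ± 0.25, adjusted p = 0.0409), and Nes 8.18 ± 0.175 FPKM and 14 ± 3.4 FPKM (0.68 ± 0.19, adjusted p = 0.0465). Unlike the keratins, Vim was highest at day 21 in replicate 5. Without that sample Vim was at 1.05, adjusted p = 0.0759, Lmna at 0.96, adjusted p = 0.0521 and Nes at 0.75, adjusted p = 0.046 by limma, so Vim and Lmna were no longer called.

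Other genes among the 15 largest increases were of several kinds, and in which cells they rose was not tested. Igfn1, a Z-disc protein of immunoglobulin and fibronectin domains, was at 2.82, 3.82, 3.93, 3.12 and 3.08 FPKM without injury and 64.7, 64.7, 53.1, 45.9 and 21.9 FPKM at day 21 (3.46 ± 0.76, adjusted p = 0.0133 by limma). Mybph, a thick filament protein of developing fibres, was at 2.45, 4.64, 1.24, 0.558 and 3.61 FPKM and 38, 29.4, 27.7, 16.2 and 10.2 FPKM (2.87 ± 0.76, adjusted p = 0.0344). Both were lowest in replicate 5 at day 21 and still clear of the uninjured range. Aif1l, an actin-binding protein, had 1.14 ± 0.763 FPKM and 22.2 ± 9.65 FPKM (3.34 ± 0.52, adjusted p = 0.00153), and Cpne2, a copine that binds phospholipid in the presence of calcium, 3.15 ± 0.544 FPKM and 34.7 ± 15.1 FPKM (2.95 ± 0.46, adjusted p = 0.00153). Aldh3a1, an aldehyde dehydrogenase known from cornea and stomach, was at 0.193, 0.12, 0.0439, 0 and 0 FPKM and 9.67, 9.4, 4.7, 15.2 and 0.646 FPKM (2.71 ± 0.37, adjusted p = 0.00106), with 0 to 5 reads per uninjured sample. In replicate 5 it was near the uninjured range and the other 4 samples were far above. The noncoding gene Gm48395 (chr14:20215502-20221425), annotated as a lincRNA, was at 4.48, 0.717, 1.4, 2.51 and 0 FPKM and 43.5, 43.7, 25.8, 28.8 and 13.8 FPKM (3.64 ± 0.54, adjusted p = 0.00152).

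Sarcomere isoforms of development were higher at day 21 in their means for all 8 members, with a median of 1.29 on the log2 scale, but Mybph alone was called. Embryonic myosin, Myh3, was at 0.669, 0.566, 0.633, 0.228 and 0.485 FPKM and 4.13, 4.65, 3.63, 2.4 and 1.02 FPKM (1.38 ± 0.68, adjusted p = 0.26 by limma). Perinatal myosin, Myh8, was at 0.198, 0.232, 0.985, 0.193 and 0.168 FPKM and 5.22, 3.97, 4.2, 1.51 and 3.42 FPKM (1.75 ± 0.74, adjusted p = 0.186). Neither passed although no day 21 sample overlapped the uninjured ones, and the fit takes its spread from all 27 samples. In a fit of the 10 samples alone, 5 of the 8 were called. Adult fast fibre genes had no call among 16 (median -0.28, 1 with an unadjusted p under 0.05, 0 by limma-voom), and slow fibre genes 1 of 11, the pump gene Atp2a2. The slow genes had a median of 0.30, with 3 higher at an unadjusted p under 0.05. Among these, the troponin genes Tnni1 (1.87, limma adjusted p = 0.0567) and Tnnt1 (1.79, adjusted p = 0.055) fell just short of a call. Myh2, the myosin of type 2A fibres, was at 421, 112, 125, 183 and 126 FPKM without injury and 39.4, 32.6, 234, 37.2 and 51.1 FPKM at day 21 (-1.56 ± 0.56, adjusted p = 0.117). At day 21, 4 samples were below every uninjured one and replicate 3 was above 4 of them. The median of the fast genes was -0.081 with the common sum and -0.012 after quantile normalization.

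A pair of ankyrin repeat genes whose proteins bind titin differed in direction. Ankrd1 rose from 10.1, 16.7, 11.4, 8.42 and 3.95 FPKM to 80.2, 90.9, 90.8, 59.9 and 19.3 FPKM (2.57 ± 0.58, adjusted p = 0.0151 by limma), with full separation. Ankrd23 fell, from 28, 28.8, 12.2, 27.4 and 50.4 FPKM to 11.1, 6.46, 19.3, 9.15 and 5.08 FPKM (-1.44 ± 0.41, adjusted p = 0.0475), and its groups overlapped. Without day 21 replicate 5 Ankrd23 was no longer called (-1.25, adjusted p = 0.132). The other 10 tested members of the list had no call.

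**Figure D3:**
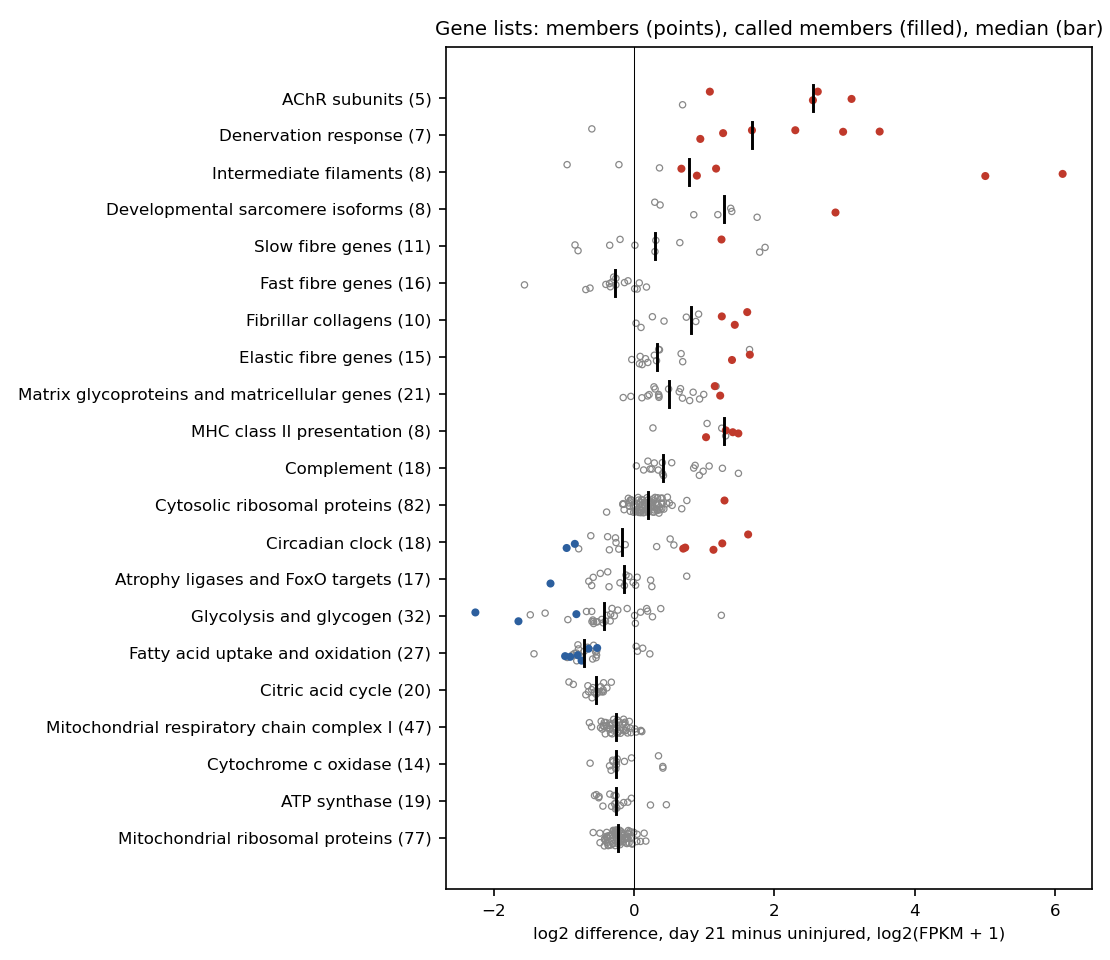
Log2 difference between day 21 and uninjured muscle for the tested members of 21 gene lists (number in brackets), with called members filled in red (higher) or blue (lower), others open, and the median as a black bar. The receptor list has 4 filled points of 5, the fatty acid list 6 of 27 on the lower side, and the mitochondrial lists at the bottom none.

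Among ribosomal proteins of the cytosol, Rpl3, which is found in ribosomes of all tissues, rose from 19, 19.4, 20.5, 16.4 and 15.4 FPKM to 47.6, 53.8, 41.7, 47 and 37 FPKM (1.28 ± 0.29, adjusted p = 0.0151 by limma). Its striated muscle counterpart Rpl3l was at 599.6, 436, 462, 389.6 and 552 FPKM and 371, 343, 371, 379.97 and 373 FPKM (-0.39 ± 0.39, adjusted p = 0.614), not called although the groups did not overlap. Eef1a1 and Eef1a2, the general and the muscle and nerve forms of elongation factor 1α, were set beside them after their values were seen, and such pairs in other lists differed. Of Nmrk1 and Nmrk2 the call fell on the muscle form Nmrk2, and neither Eno1 nor Eno3 was called. Eef1a1 went from 121 ± 9.47 FPKM to 342 ± 73.9 FPKM (SD, n = 5 each, 1.46 ± 0.29, adjusted p = 0.00736), and Eef1a2 was at 908 ± 237 and 746 ± 254 FPKM (-0.33 ± 0.29, adjusted p = 0.565). Rpl3 was the single call among 82 tested ribosomal protein genes of the cytosol, of which 68 had the higher mean at day 21 (median 0.19). Rpl3 and Eef1a1 have processed pseudogenes, so reads may be split between copies.

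Matrix genes of the scar remained raised in part. Of 10 tested fibrillar collagen genes 3 rose (1.74% of all genes rose), and all 10 had the higher mean, with a median of 0.81. Col3a1, the collagen of early scar, was at 27.3, 23.9, 9.72, 19.7 and 16.4 FPKM without injury and 54.2, 75, 73.2, 42.3 and 53.2 FPKM at day 21 (1.61 ± 0.38, adjusted p = 0.0194 by limma). Col1a2, a chain of type I collagen, was at 24.1, 24.8, 11.1, 13.1 and 12.6 and 39.7, 43.3, 45.6, 25.7 and 50.04 FPKM (1.25 ± 0.32, adjusted p = 0.0284). Replicate 5 was not low for either collagen, and it held the highest level of Col1a2. Without it the smaller group left Col1a2 at 1.17, adjusted p = 0.0713, Col1a1 at 1.4, adjusted p = 0.082 and Col3a1 at 1.65, adjusted p = 0.0359. Fewer cells of a type and less RNA per cell cannot be told apart in such bulk samples, nor can more cells and more RNA.

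Elastic fibre genes had 2 calls of 15. Eln, the elastin gene, was at 3.87, 2.83, 2.57, 2.73 and 3.35 FPKM and 8.58, 9.59, 7.86, 14.1 and 8.97 FPKM (1.4 ± 0.30, adjusted p = 0.0126 by limma), and Mfap2, a microfibril protein, at 2.36, 2.49, 2.11, 3.02 and 1.52 FPKM and 9.44, 9.55, 8.91, 8.19 and 10.2 FPKM (1.65 ± 0.43, adjusted p = 0.0317). The elastin call was lost in 1 of 26 alternative settings and the Mfap2 call in 14, among them that without replicate 5 (1.62, adjusted p = 0.0663). Of 21 matrix glycoprotein genes Comp (1.23, adjusted p = 0.0262) and Thbs3 (1.15, adjusted p = 0.0195) rose, both thrombospondins of tendon and cartilage, and Comp was not called without replicate 5 (1.15, adjusted p = 0.0656). Tendon markers gave no call in 5 tested genes by limma or limma-voom (1 at an unadjusted p under 0.05), with a summed level of 50.3 to 113 FPKM without injury and 38.7 to 183 FPKM at day 21. Single calls fell on Podn (0.66, adjusted p = 0.0274) among 9 small leucine-rich proteoglycans and on Col13a1 (0.42, adjusted p = 0.0466), a transmembrane collagen also found at the neuromuscular junction, among 22 other collagens. Without replicate 5 Col13a1 was at 0.42, adjusted p = 0.086. Neither laminins and nidogens (9 genes) nor cross-linking enzymes (14 genes) had a call by limma or limma-voom, with 1 and 8 genes at an unadjusted p under 0.05. Podn overlaps Scp2 on the same strand and Thbs3 overlaps Mtx1 on the other, so reads of those genes may enter their values.

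Signals that act on fibroblasts and fibres were called singly. In the TGF-β list, 3 of 17 genes rose, against 1.74% of all genes. Fst, which encodes the myostatin and activin antagonist follistatin, was at 0.556, 0.468, 0.0186, 0.443 and 0.655 FPKM without injury and 2.83, 4.16, 3.08, 1.17 and 0.547 FPKM at day 21 (1.12 ± 0.28, adjusted p = 0.0264 by limma). Its replicate 5 lay inside the uninjured range, and the other 4 samples were above it. Fstl1, a secreted relative of follistatin, went from 5.93 ± 1.43 to 14 ± 2.45 FPKM (1.12 ± 0.27, adjusted p = 0.0193) and the co-receptor gene Tgfbr3 from 1.94 ± 0.212 to 3.94 ± 0.651 FPKM (0.74 ± 0.16, adjusted p = 0.0122, SD and n = 5 for each). Igfbp2, a carrier of insulin-like growth factors, had 0 reads in 4 uninjured samples and 2.68 to 5.42 FPKM in the first 4 day 21 samples, with 1.26 FPKM in replicate 5 (2.14 ± 0.43, adjusted p = 0.00712). Peg3, an imprinted gene of muscle and satellite cells, went from 0.964, 2.5, 2.23, 1.5 and 1.44 to 5.84, 8.09, 4.36, 4.88 and 10.6 FPKM (1.48 ± 0.38, adjusted p = 0.029), and was highest in replicate 5, without which it was at 1.32, adjusted p = 0.0812. Timp1, an inhibitor of matrix proteases, and Mmp14, a membrane protease, were the calls among 14 genes of that group, at 1.61, adjusted p = 0.0411 and 1.09, adjusted p = 0.0392, and both calls were lost in 14 of 26 alternative settings. Without replicate 5 Timp1 was at 1.61, adjusted p = 0.078 and Mmp14 at 1.01, adjusted p = 0.0969.

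Of the immune lists, MHC class II presentation, by which macrophages, dendritic cells and B cells show peptides to T cells, had the most calls. Of 8 tested genes 4 rose (1.74% of all genes rose) and 7 had non-overlapping groups (5.26% of all genes upward), with a median of 1.28. H2-Eb1 was at 17.2, 10.01, 5.69, 11.9 and 17.5 FPKM without injury and at 42.4, 34.6, 34.2, 34.7 and 27.6 FPKM at day 21 (1.49 ± 0.36, adjusted p = 0.0217 by limma). H2-Aa went from 8.89, 7.6, 6.14, 10.2 and 13.1 to 30.2, 28.9, 24.4, 22.8 and 21.4 FPKM (1.41 ± 0.37, adjusted p = 0.0347) and H2-Ab1 from 13, 11, 7.81, 11.6 and 14.8 to 35.4, 33.7, 30.1, 24.2 and 26.9 FPKM (1.31 ± 0.33, adjusted p = 0.0272). These chains of the peptide-binding molecules were 2 to 3 times higher in mean FPKM, and replicate 5 lay within or just below the range of the other day 21 samples. H2-DMa, which loads peptides, reached 3.97 ± 0.729 FPKM from 1.49 ± 0.704 FPKM (SD, n = 5 each, 1.03 ± 0.29, adjusted p = 0.0473). Without replicate 5 the calls were 2 of 8, with H2-Aa at 1.47, adjusted p = 0.0524 and H2-DMa at 1.03, adjusted p = 0.0868. With the common sum none of the 4 was called, though the median stayed at 1.41.

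Macrophage markers gave no call in 12 genes by limma or limma-voom (2 at an unadjusted p under 0.05), yet all 12 had the higher mean and 7 had non-overlapping groups, against 5.26% of all genes. Their summed level was 34.9 to 49.3 FPKM in uninjured muscles and 62.2 to 113 FPKM at day 21, and their part in the MHC class II result was not tested. Lgals3, the galectin-3 gene of macrophages and fibroblasts, was called among 16 scar macrophage genes, from 1.66, 0.688, 2.06, 0.874 and 2.28 FPKM to 25.2, 41.3, 16.2, 15.8 and 14 FPKM (3.16 ± 0.59, adjusted p = 0.00424). Ccl8, a monocyte chemokine, was the call among 26 chemokine and receptor genes, at 4.06, 4.56, 4.32, 1.04 and 4.38 FPKM at day 21 and with 0 reads in 4 of 5 uninjured samples (2.02 ± 0.47, adjusted p = 0.0179). Complement genes had no call in 18 by limma or limma-voom, 4 at an unadjusted p under 0.05, and a higher mean in all 18 (median 0.41). Markers of neutrophils, T cells, B cells, dendritic cells and mast cells had no call by limma or limma-voom, with 2 B cell genes and 1 mast cell gene at an unadjusted p under 0.05. Among endothelial markers Kdr, the main receptor for vascular endothelial growth factor, fell from 10.4, 9.01, 9.39, 9.67 and 9.43 FPKM to 4.96, 4.52, 5.1, 3.2 and 5.91 FPKM (-0.90 ± 0.20, adjusted p = 0.0151), while the other 6 had no call.

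Of the 15 genes named for the largest decreases, several encode enzymes. These 15 were taken only from called genes whose groups did not overlap, which leaves out genes such as Bdh1, mt-Ti and mt-Ts2. Pfkfb3, which makes the activator of phosphofructokinase, fell from 15, 26.7, 31, 36.1 and 25.2 FPKM to 7.85, 8.31, 3.68, 9.78 and 10.1 FPKM (-1.65 ± 0.32, adjusted p = 0.00468 by limma). Nmrk2, a kinase that turns nicotinamide riboside into the precursor of NAD and is almost confined to muscle, fell from 221, 175, 221, 237 and 197 FPKM to 101, 85.8, 118, 63.2 and 58.8 FPKM (-1.33 ± 0.28, adjusted p = 0.0118). The antisense gene Atcayos overlaps Nmrk2, and without strand their reads cannot be told apart. Pfkfb3 and Nmrk2 were below the uninjured range in each day 21 sample. Bdh1, which oxidises the ketone body 3-hydroxybutyrate, was at 17.4, 6.2, 8.59, 13.7 and 9.31 FPKM without injury and 2.56, 0.985, 7.01, 1.15 and 0.922 FPKM at day 21 (-1.94 ± 0.36, adjusted p = 0.00432), where replicate 3 stayed within the uninjured range. Plin5, which ties lipid droplets to mitochondria, had 18.4, 11.8, 7.39, 7.12 and 10.6 and 5.0, 4.32, 5.43, 1.47 and 4.12 FPKM (-1.25 ± 0.28, adjusted p = 0.0146), and Slc38a4, an amino acid transporter, 21.3 ± 8.45 and 6.95 ± 2.03 FPKM (SD, n = 5 each, -1.46 ± 0.28, adjusted p = 0.0045).

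Fatty acid use was the metabolic list with the most calls. Of 27 tested genes, 6 fell and none rose (1.69% of all genes fell), 23 had the lower mean, and the median was -0.71. Cd36, the fatty acid carrier of the surface membrane, was at 83.9, 55.5, 53, 67.9 and 53.4 FPKM without injury and 34.1, 30.02, 39, 24.7 and 36.2 FPKM at day 21 (-0.91 ± 0.18, adjusted p = 0.00594 by limma). Pdk4, the kinase that turns pyruvate dehydrogenase off when fat is burned, was at 89.6, 65.6, 58.4, 62.6 and 73.6 FPKM and 44.7, 37, 44, 27 and 24.8 FPKM (-0.98 ± 0.27, adjusted p = 0.045). Ucp3, a mitochondrial carrier induced by fatty acids, was at 41.4, 35.5, 36.1, 30.2 and 39.7 FPKM and 20.8, 21.1, 22.1, 16.5 and 27 FPKM (-0.75 ± 0.17, adjusted p = 0.0151). Cd36, Pdk4 and Ucp3 were lower in every day 21 sample than in any uninjured one, including replicate 5 with its high mitochondrial share. Mlycd, which removes the malonyl-CoA that blocks fatty acid entry, had 42.5 ± 4.45 and 26.8 ± 3.19 FPKM (-0.65 ± 0.16, adjusted p = 0.027), Cpt2, of the carnitine shuttle, 43.2 ± 6.11 and 29.6 ± 2.17 FPKM (-0.52 ± 0.15, adjusted p = 0.0458), and Hadha, of the trifunctional protein, 42.7 ± 8.96 and 24.6 ± 7.82 FPKM (-0.80 ± 0.20, adjusted p = 0.0248). With the common sum the median was -0.51 and none was called, and without replicate 5 the median was -0.61 and 3 were called. Without that sample Pdk4 was at -0.87, adjusted p = 0.12, Hadha at -0.65, adjusted p = 0.0778, Mlycd at -0.61, adjusted p = 0.0614 and Cpt2 at -0.55, adjusted p = 0.0622.

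The citric acid cycle list had no call among 20 genes by limma or limma-voom, but every member had the lower mean (median -0.54) and 17 had an unadjusted p under 0.05, against 10.6% of all genes in this direction. Differences ranged from -0.93 for Pdha1 to -0.32 for Idh3g. Of the 20, 5 had non-overlapping groups (5.13% of all genes), and with the common sum the median was -0.34. Respiratory chain genes differed less. Medians were -0.25 for 47 complex I genes, -0.34 for 14 genes of complexes II, III and cytochrome c, -0.25 for 14 cytochrome c oxidase genes, -0.26 for 19 ATP synthase genes and -0.23 for 77 mitochondrial ribosomal protein genes. No gene of these 5 lists was called by limma or by limma-voom, and the unadjusted count was 4, 2, 0, 2 and 11 on the lower side. With the common sum these medians shrank to between -0.15 and -0.042, and that of cytochrome c oxidase was 0.032 after quantile normalization, so no direction is given for them.

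Transcripts of the mitochondrial genome were lower in mean for all 15 protein and rRNA genes (median -0.46), none called by limma or limma-voom and 1 at an unadjusted p under 0.05, at a summed 189000 to 276000 FPKM without injury and 102000 to 382000 FPKM at day 21. The top of this range is replicate 5, without which the median was -0.78, still with no call. Of 20 mitochondrial tRNAs 2 were called lower, mt-Ti (-2.6, adjusted p = 0.0225 by limma) and mt-Ts2 (-2.23, adjusted p = 0.0146), with overlapping groups. Without replicate 5, 6 of the 20 were called lower and the median moved from -0.97 to -1.12. Both named tRNAs are shorter than a usual library fragment, and mt-Ti overlaps mt-Nd1, so their counts may hold reads of neighbours.

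Sugar metabolism had 3 calls of 32, all lower. Beside Pfkfb3 these were Ugp2, which makes the glucose donor of glycogen (-0.82, adjusted p = 0.0465), and one of the pair of gene identifiers that carry the symbol Aldoa. The identifier ENSMUSG00000114515 (chr7:126800790-126809108, minus strand) was at 31, 45.1, 16.5, 47.3 and 41 FPKM without injury and 11.6, 3.76, 14.8, 5.58 and 2.35 FPKM at day 21 (-2.26 ± 0.57, adjusted p = 0.0274 by limma). The main Aldoa gene, muscle aldolase (chr7:126795234-126800751), was at 10426 ± 730.3 FPKM and 8923 ± 1083 FPKM (SD, n = 5 each, -0.23 ± 0.33, adjusted p = 0.739) and had no call. The called identifier lies just before the main gene on the same strand and overlaps Fam57b on the other strand, which non-directional libraries do not separate, so its value is uncertain. Without replicate 5, Pfkfb3 was the 1 call left of the 3, with Ugp2 at -0.74, adjusted p = 0.119 and this Aldoa identifier at -1.98, adjusted p = 0.08.

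Asb2 and Kbtbd13, of the 15 named for the largest decreases, and Fbxo32, of the atrophy list, each encode a substrate receptor of a ubiquitin ligase. Asb2, which marks filamins and desmin for degradation, fell from 243, 222, 239, 292 and 296 FPKM to 89.3, 91.5, 112, 91.6 and 111 FPKM (-1.37 ± 0.26, adjusted p = 0.00432 by limma), the lower value in each of 5 samples. Kbtbd13, a Kelch adaptor of cullin 3 in fibres, fell from 12.4, 12.6, 11.6, 14.7 and 13.5 to 5.65, 4.22, 8.07, 5.96 and 2.2 FPKM (-1.24 ± 0.29, adjusted p = 0.0186). Fbxo32, which encodes atrogin-1, a ligase component induced in wasting muscle, fell from 25.2, 30.1, 33.1, 42.6 and 30.2 FPKM to 13.4, 13.2, 15.3, 18.2 and 8.54 FPKM (-1.19 ± 0.30, adjusted p = 0.0274). Its partner in atrophy Trim63, encoding MuRF1, was at 58.1, 70.6, 60.7, 80.3 and 62.5 FPKM and 53.3, 58.7, 53.8, 57.2 and 34.6 FPKM (-0.37 ± 0.27, adjusted p = 0.453) and had no call, and Fbxo32 was the only call among 17 genes of that list. Without replicate 5 Fbxo32 was at -1.04, adjusted p = 0.0794 and Kbtbd13 at -1.02, adjusted p = 0.0601, neither past the threshold, whereas Asb2, at -1.42, adjusted p = 0.0061, stayed called. Proteasome subunits had no call in 38 genes by limma or limma-voom, none with an unadjusted p under 0.05 (median 0.027).

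The remaining leading decreases were of mixed kinds. Smyd2, a lysine methyltransferase of cytosol and sarcomere, was at 38.4, 34.5, 25.7, 52.8 and 60.8 FPKM without injury and 18.9, 6.91, 24.4, 12.7 and 11.2 FPKM at day 21 (-1.51 ± 0.37, adjusted p = 0.0248 by limma), where replicate 3 reached nearly the lowest uninjured level. Dusp8, a phosphatase of MAP kinases, had 9.23, 10.7, 12.6, 10.2 and 12.8 and 3.52, 2.44, 4.68, 5.29 and 3.51 FPKM (-1.33 ± 0.26, adjusted p = 0.00558). Another 4 genes, known only by a provisional name, BC048679 (-1.84), 1700001O22Rik (-1.8), Gm33543 (-1.21) and Gm31166 (-1.51), of which the last is annotated as a processed pseudogene, and 2 lincRNAs, Gm47708 (-1.58) and Gm28651 (-1.36), complete the 15. Without replicate 5 Smyd2 was at -1.44, adjusted p = 0.0574, Gm31166 at -1.28, adjusted p = 0.0593 and Gm47708 at -1.4, adjusted p = 0.0704. Amd2, an intronless copy of the gene for the polyamine enzyme AdoMet decarboxylase, was the call of the polyamine list (-0.80, adjusted p = 0.0451), and its reads may come from the parent gene. That parent, Amd1, had the larger difference but did not pass (-2.21 ± 0.68, limma adjusted p = 0.0674), nor did Smox (-1.5, adjusted p = 0.15). Both had groups without overlap. Without replicate 5 Amd2 was at -0.81, adjusted p = 0.0769.

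Clock genes changed in both directions. Of 18 tested members 5 rose and 2 fell, against 1.74% and 1.69% of all genes. The period genes, which encode repressors of the clock, were higher in every day 21 sample. Per1 was at 2.83, 3.69, 4.01, 4.69 and 6.37 FPKM without injury and 8.78, 9.68, 8.27, 10.8 and 24.7 FPKM at day 21 (1.26 ± 0.28, adjusted p = 0.0146 by limma). Per2 was at 0.436, 0.476, 0.407, 0.485 and 0.257 and 2.21, 2.73, 2.26, 2.74 and 9.68 FPKM (1.63 ± 0.29, adjusted p = 0.0037), and Per3 at 1.16, 1.55, 2.82, 1.9 and 1.62 and 4.14, 5.23, 3.76, 4.23 and 9.19 FPKM (1.13 ± 0.23, adjusted p = 0.00867). Replicate 5 was the highest sample for all 3 and stood far above the other 4 for Per1 and Per2. Without it the differences were 1.0, adjusted p = 0.0429 for Per1, 1.3, adjusted p = 0.00571 for Per2 and 0.94, adjusted p = 0.0255 for Per3.

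Arntl, which encodes the activator BMAL1, went the other way, from 2.04, 2.98, 1.28, 2.4 and 1.83 FPKM to 0.599, 0.459, 0.737, 0.938 and 0.214 FPKM (-0.96 ± 0.14, adjusted p = 0.00152 by limma), with replicate 5 the lowest. Nr1d1, the repressor REV-ERBα, fell from 58.9, 58.2, 52.4, 61 and 61.3 to 36.7, 29.5, 39.1, 29.9 and 26.6 FPKM (-0.84 ± 0.24, adjusted p = 0.047). Another 2 members rose, the output gene Dbp from 23, 23, 23.7, 26.7 and 28.9 to 42.2, 45.7, 42.5, 42.1 and 38.2 FPKM (0.73 ± 0.21, adjusted p = 0.0497) and Ciart from 1.93, 1.05, 2.11, 2.51 and 1.87 to 3.12, 3.06, 3.24, 3.59 and 5.59 FPKM (0.70 ± 0.19, adjusted p = 0.0355). Without replicate 5 Arntl was at -0.87, adjusted p = 0.00199, Nr1d1 at -0.78, adjusted p = 0.113, Dbp at 0.76, adjusted p = 0.0729 and Ciart at 0.57, adjusted p = 0.112, so Arntl alone of these 4 stayed called. Nr1d1 and Dbp overlap Thra and Sphk2 on the other strand, whose reads are not separated from theirs. Levels of clock genes follow the hour of the day, and the labels give no hour of collection, so group and hour cannot be told apart. Ddit4, an inhibitor of mTORC1 that responds to stress and glucocorticoid, was again highest in replicate 5, at 4.06, 2.98, 3.88, 2.96 and 2.41 FPKM without injury and 8.64, 7.49, 9.21, 18 and 28.4 FPKM at day 21 (1.69 ± 0.29, adjusted p = 0.0036, and 1.41, adjusted p = 0.00571 without that sample). Ddit4 was the call among 17 genes of stress and serine synthesis, and 17 immediate early genes had none (3 at an unadjusted p under 0.05, none by limma-voom). Gpx3, a secreted glutathione peroxidase, was the call among 19 antioxidant genes, at 100.01, 168, 121, 102 and 109.99 FPKM without injury and 306, 360.4, 153, 319.6 and 194 FPKM at day 21 (1.1 ± 0.26, adjusted p = 0.0214), with replicate 3 inside the uninjured range. Heat shock proteins (19 genes), interferon response (21) and leukocyte cytokines (18) had no call by limma or limma-voom, with 4, 1 and 3 genes at an unadjusted p under 0.05.

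Promoters of Per1, Per3, Ciart, Dbp, Arntl and Nr1d1 were searched for elements of the clock, and that of Per2 was not. The 3 shown were picked because their windows hold these elements, so the shares of all windows given below are no test of them. Capitals mark the E-box CACGTG, bound by BMAL1 with CLOCK, the D-box TTATGNAA, bound by DBP, and AGGTCA, the core of the site for REV-ERBα and the ROR receptors, each searched on both strands. The windows are 250 bases before the RefSeq start on GRCm38.p6, 5′ to 3′ on the strand of the gene, chr11:69098699-69098948 (plus) for Per1, chr4:151044666-151044915 (minus) for Per3 and chr3:95882229-95882478 (minus) for Ciart.
Per1: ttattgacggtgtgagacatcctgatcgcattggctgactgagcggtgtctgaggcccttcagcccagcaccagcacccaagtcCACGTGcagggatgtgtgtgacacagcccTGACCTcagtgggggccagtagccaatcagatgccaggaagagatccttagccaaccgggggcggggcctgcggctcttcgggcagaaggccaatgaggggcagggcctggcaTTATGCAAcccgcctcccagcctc
Per3: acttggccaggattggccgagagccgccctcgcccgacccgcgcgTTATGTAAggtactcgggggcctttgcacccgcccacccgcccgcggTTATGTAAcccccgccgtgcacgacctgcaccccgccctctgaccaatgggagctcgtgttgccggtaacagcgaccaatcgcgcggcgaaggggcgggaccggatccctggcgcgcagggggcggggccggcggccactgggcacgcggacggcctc
Ciart: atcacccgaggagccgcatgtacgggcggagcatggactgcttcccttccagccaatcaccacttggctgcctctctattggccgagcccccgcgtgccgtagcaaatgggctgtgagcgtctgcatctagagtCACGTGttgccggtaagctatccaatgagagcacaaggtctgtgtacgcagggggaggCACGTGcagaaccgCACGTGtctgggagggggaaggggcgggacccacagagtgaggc

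The Ciart window held 3 copies of CACGTG, the Per3 window 2 D-boxes and the Per1 window 1 of each element. At least 1 match was found in 6.04% of 32536 windows for CACGTG, 3.07% for the D-box and 14.0% for AGGTCA, and 3 or more copies of CACGTG in 0.0615%. The windows of Dbp, Arntl and Nr1d1, and a second start of Per1, held none of these letters.

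**Figure D4:**
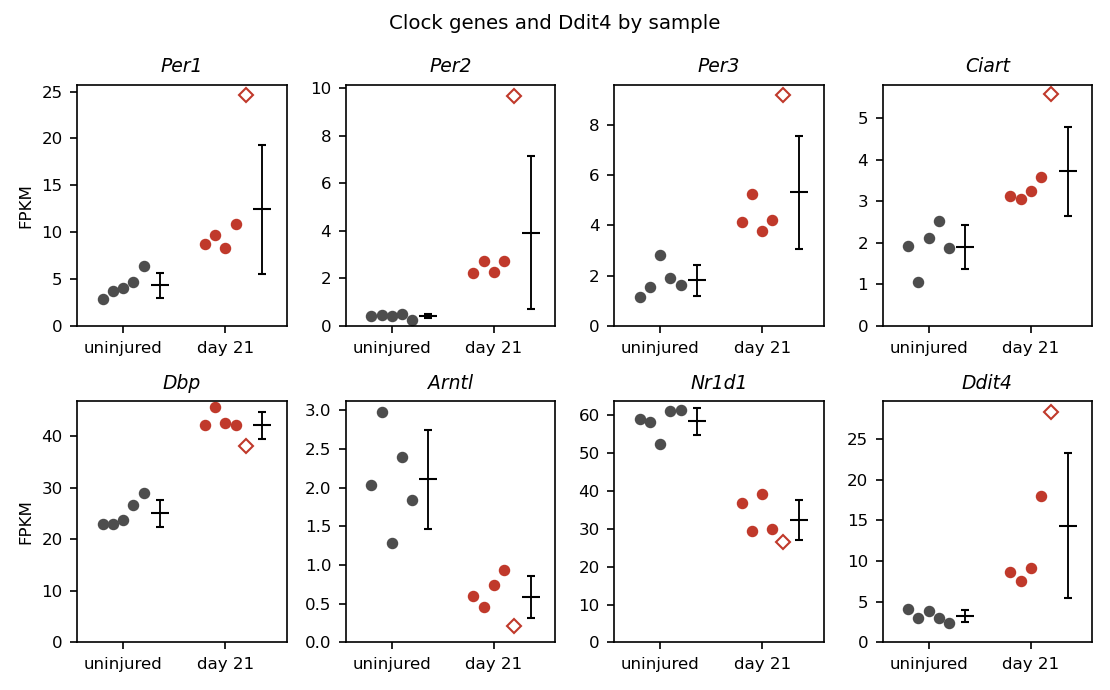
FPKM of 7 clock genes and Ddit4 in the 5 uninjured (grey) and 5 day 21 (red) samples, each point being a sample, the open diamond day 21 replicate 5, and the bar the mean with its SD. The groups do not overlap in any panel, and the diamond is highest for Per1, Per2, Per3, Ciart and Ddit4 (24.7 FPKM for Per1) and lowest for Dbp, Arntl and Nr1d1.

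The genes named above reached their day 21 level by different routes, for which the other days are set side by side against the same 5 uninjured muscles. For Sln the means were 61.8 ± 43.6, 355 ± 409, 550.4 ± 122 and 331 ± 157 FPKM on days 3, 7, 14 and 21 (SD, n = 5, 6, 6 and 5). Igfn1 likewise was low at day 3 with 5.44 ± 2.14 FPKM and had 74.3 ± 15.5 FPKM at day 14. Mymk, in contrast, was highest at day 3 with 73.5 ± 29.3 FPKM and had 15.1 ± 4.88 FPKM at day 14 and 9.94 ± 5.36 FPKM at day 21. Lgals3 had 239 ± 139 FPKM at day 3 and 22.5 ± 11.4 FPKM at day 21. Thus Sln and Igfn1 were highest late, and Mymk and Lgals3 early. Chrna1 stayed at 42 ± 17.1, 38.9 ± 28, 46.7 ± 15.9 and 35 ± 17.2 FPKM from day 3 to day 21. The decrease of Ucp3 was deepest early, at 11 ± 3.35 FPKM at day 3 against 21.5 ± 3.75 FPKM at day 21, and that of Pfkfb3 at day 7, at 3.4 ± 1.71 FPKM.

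**Figure D5:**
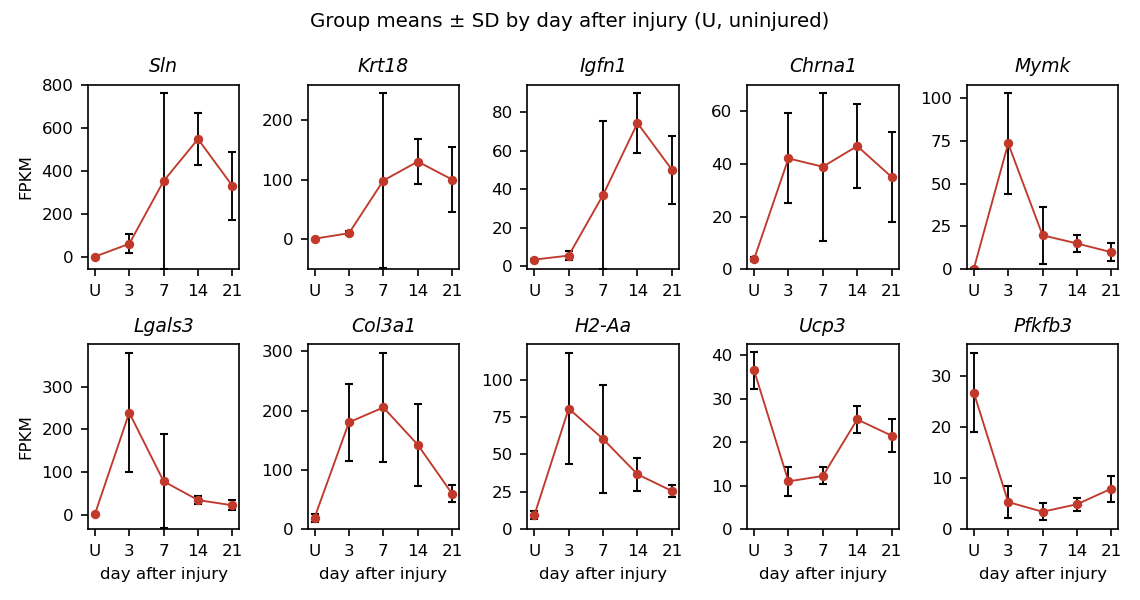
Mean FPKM with SD in uninjured muscle (U) and at days 3, 7, 14 and 21 after injury for 10 genes, with n = 5, 5, 6, 6 and 5 samples. Sln, Krt18 and Igfn1 are highest at day 14, Mymk, Lgals3 and H2-Aa at day 3, and Ucp3 and Pfkfb3 are below the uninjured mean on each day.

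Day 21 was not told apart from day 14. No gene was called between them (0 of 14630 by limma, 0 by limma-voom), and 909 genes, or 6.21%, had an unadjusted p under 0.05. Means of Sln, Krt18, Igfn1 and the collagens were lower at day 21 than at day 14, and none of these differences passed the test.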

How the data were processed

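RNA of tibialis anterior muscle was sequenced after selection with poly-T beads in libraries that do not keep strand. The authors aligned reads with HISAT2 2.0.5 and counted them per gene with featureCounts 1.5.0-p3, and the deposited table holds FPKM for 54532 genes in 27 samples. FPKM times gene length gave whole reads for 100% of values (tolerance 0.01), and the deposited FPKM already carry a scaling that equalises the median ratio between samples, which the sources used here do not name. Genes at 0.5 FPKM or more in at least 5 samples were kept. limma 3.58.1 (R 4.3.3) was fitted to log2(FPKM + 1) with a mean for each of the 5 groups over all samples and a trend in the prior variance. Day 21 was contrasted with uninjured muscle, two-sided, with Benjamini-Hochberg adjustment over all 14630 genes and a threshold of 0.05. The script was tested on simulated data. Gene lists and members were chosen with earlier results of these data known. The genes named are the 15 largest changes in each direction among called genes whose groups did not overlap, called members of the lists, and members described for contrast. Genes overlapping others are uncertain, since strand was not kept. Coordinates are those of the files (GRCm38). Figures were drawn with matplotlib 3.10.9 in Python 3.11.15. Alternatives changed the pseudocount, filter, scaling, model and samples, and those with the common sum without mitochondrial genes, each sample's own total, and letter blocks were added after seeing the data.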

Additional observations from a re-analysis of the deposited data

Results flagged for a closer look

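Among 226 groups of 5 samples tested, in 30 the highest or lowest sample stood apart from the other 4 by Dixon's test on log2(FPKM + 1), which chance does in about 1 of 20. Of these, 14 were day 21 replicate 5.

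Replicate 5 was lowest at day 21 for Chrna1 at 4.94 FPKM, Chrnd at 3.43, Aif1l at 6.02, Gadd45a at 25.5, Cdkn1a at 10.1, Myod1 at 28.4, Atp2a2 at 6.82, Ankrd1 at 19.3, Trim63 at 34.6, Id2 at 4.59 and Ighg2c at 0.743 FPKM. It was highest for Per1 at 24.7 FPKM, Per2 at 9.68 and Ciart at 5.59 FPKM. Among the other day 21 samples, replicate 3 was lowest for Pfkfb3 at 3.68 FPKM and highest for Gm28651 at 1.94, Podn at 3.70, Myh2 at 234 and Id3 at 52.0 FPKM. Replicate 4 was lowest for Plin5 at 1.47 FPKM and Ccl8 at 1.04 FPKM, and replicate 2 for Rpl3l at 343 FPKM.

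Of the uninjured samples, replicate 3 was highest for Rrad at 5.46 FPKM, Mymk at 0.620, Runx1 at 0.269 and Myh8 at 0.985 FPKM, and lowest for Fst at 0.0186 FPKM. Replicate 1 was highest for BC048679 at 12.8 FPKM and Igfbp2 at 0.0813 FPKM, and replicate 4 for Ccl8 at 0.477 FPKM.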

How the results depend on the processing

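The number of genes called at day 21 against uninjured muscle (255 higher, 247 lower) moved with the model and scaling. It was 412 higher with a pseudocount of 0.1 (235 lower), 128 and 119 with no filter, 759 and 789 with filter and fit on the 2 groups, 757 and 720 with only the 2 groups in the fit, 1196 and 1275 with sample quality weights, 143 and 139 with limma-voom, and 153 and 141 after quantile normalization. It was 40 and 5 with a common sum, 76 and 38 when this sum left out mitochondrial genes, and 104 and 25 with each sample's own total of reads, so that 88.9%, 66.7% and 80.6% of calls were higher against 50.8%. A pseudocount of 0.5, a minimum of 1 FPKM and limma without the trend stayed within 1.5 times. Median-ratio scaling, also counted among the alternatives, was bound to stay there, since the deposited FPKM already carry it. Leaving out a replicate gave 105 to 253 higher and 85 to 315 lower genes, with both lowest counts without day 21 replicate 2. No setting run called a gene between day 21 and day 14, for which the fits of the 2 groups were not run. Why the counts differ was not tested.

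A replicate block gave 390 higher and 405 lower genes, and 558 and 675 with the letters of the labels as the block. Deviations of same-numbered samples from their group means correlated at -0.30 to 0.021. Correlations over so few samples cannot settle whether samples share a batch by number or letter, and this was not tested further. Over 109 genes named and all alternatives, 590 results lost a call, 12 gained one and none reversed direction. Depth limits genes near 0 reads, such as Chrng in uninjured muscle.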

Other observations

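Several genes outside the lists were called at day 21, and these genes were picked after their values were seen. The inhibitors of basic helix-loop-helix factors Id1, Id2 and Id3 rose. Id1 was at 16.1, 10.1, 18, 6.3 and 22.9 FPKM in the uninjured samples and 31.7, 32, 46.5, 36.6 and 35.7 FPKM at day 21 (1.36 ± 0.38, adjusted p = 0.0427 by limma). Id2 was at 2.8, 1.41, 1.85, 1.07 and 1.57 FPKM and 6.3, 6.87, 6.78, 6.99 and 4.59 FPKM (1.43 ± 0.27, adjusted p = 0.00424), and Id3 at 24.7, 13.5, 19.7, 12.7 and 18.2 FPKM and 37.2, 37.2, 52, 37.4 and 37 FPKM (1.16 ± 0.25, adjusted p = 0.0118). None of these 3 genes had overlapping groups, and without day 21 replicate 5 Id1 was not called (1.37, adjusted p = 0.0779).

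Another 3 genes, each tied to p53 in other tissues, were picked in the same way, and they stand for no group. Of further such genes in the lists, Cdkn1a and Gadd45a were called higher (limma adjusted p = 0.0317 and 0.00959). Sesn1, Sesn2 and Gdf15 were not called (limma adjusted p = 0.74, 0.228 and 0.702). Eda2r, a receptor for an ectodysplasin, was at 0.879, 1.47, 1.61, 1.76 and 1.04 FPKM and 9.68, 10.7, 9.77, 5.04 and 3.98 FPKM (1.84 ± 0.42, adjusted p = 0.0157 by limma), Mdm4 at 1.4, 2.11, 2.88, 1.82 and 1.79 FPKM and 4.58, 5.76, 3.7, 3.53 and 6.71 FPKM (0.95 ± 0.19, adjusted p = 0.00778), and the cell death gene Bbc3 at 0.813, 1.23, 1.28, 0.421 and 0.901 FPKM and 4.38, 4.53, 3.12, 1.85 and 1.1 FPKM (0.97 ± 0.25, adjusted p = 0.0319), with replicate 5 of the last inside the uninjured range. The antibody heavy chain gene Ighg2c was at 0.906, 0.394, 0.129, 0.429 and 0.258 FPKM without injury and 6.39, 4.42, 4.5, 6.47 and 0.743 FPKM at day 21 (1.81 ± 0.32, adjusted p = 0.0036), and its constant region shares sequence with other chains. Among lower genes, Lpin1, a phosphatidate phosphatase, was at 26.2 ± 2.84 FPKM and 11.2 ± 1.88 FPKM (SD, n = 5 each, -1.16 ± 0.21, adjusted p = 0.00379), and Txnip, which restrains glucose uptake, at 163 ± 30.4 FPKM and 81.1 ± 19.6 FPKM (-1.0 ± 0.22, adjusted p = 0.0132).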
